A study of Mus musculus with 12 samples.

Results

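The genes described here encode subunits, activators and assembly factors of the proteasome, the ubiquitin-conjugating (E2) enzymes of the Ube2 family and the ubiquitin-specific proteases of the Usp family. They were taken by mouse gene symbol, for symbols that begin with Psma to Psmg and a digit, with Ube2 or with Usp and a digit, and by the gene number that the array writes into its probe names. That rule found 96 probes of 73 genes. Of these, 66 probes of 58 genes were kept because their detection score (a score from 0 to 1 against negative control probes) was above 0.99 on at least 3 distinct arrays, out of 4405 named genes so kept on the whole array. The kept probes were 26 of 24 proteasome genes, 22 of 17 Ube2 genes and 18 of 17 Usp genes, and 62 of the 66 were detected on every array for which a score could be read. Of the 158 symbols of the mouse reference that the pattern matches, only these 73 had a probe named by gene number. The rest were not assessed. Of the 73 genes, 15 had no kept probe. They were Psmb8 among the proteasome genes, Ube2b, Ube2c, Ube2dnl1, Ube2l6 and Ube2v2 among the Ube2 genes, and Usp13, Usp15, Usp17la, Usp17lb, Usp17lc, Usp33, Usp34, Usp42 and Usp9y among the Usp genes. A symbol pattern also catches genes that share only a name: Psme3ip1 encodes a binding partner of a proteasome activator, and Usp6nl a Rab GTPase-activating protein that is no protease.

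The RNA came from organotypic hippocampal slice cultures of C57BL/6J mice of mixed sex, thin brain slices maintained in a dish, and was measured on Illumina Mouse-6 v1.1 BeadChips. Slices spent 2 h in artificial cerebrospinal fluid (Control ACSF), in an ischemic solution (IS), in ACSF with DIDS (ACSF + DIDS) or in the ischemic solution with DIDS (IS + DIDS), with 3 samples per group. DIDS is a disulfonic stilbene compound in wide use as an inhibitor of chloride channels and of bicarbonate exchange. The design asks what IS does against Control ACSF, what DIDS does within IS, and what DIDS does alone.

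The proteasome is the protease complex that degrades proteins tagged with ubiquitin. Its barrel-shaped core holds the proteolytic sites, a regulatory cap recognises and unfolds the substrate with a ring of ATPases, and alternative activators and dedicated chaperones complete the set. E2 enzymes pass activated ubiquitin, or a relative such as SUMO or NEDD8, to substrates with the help of E3 ligases, and ubiquitin-specific proteases take it off again. In the hippocampus this system is known for removing damaged proteins and for the turnover of synaptic proteins.

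Some properties of the arrays bear on every value below. The 12 scanner files hold only 9 distinct arrays, because 3 pairs of files are identical in every signal, whereas the 12 columns of the deposited value table all differ and are used here. Of those columns 9 matched 1 scanner array each, at rank correlations from 0.9969 to 1.0000, and by that match the scanner files of IS 2, ACSF + DIDS 1 and IS + DIDS 1 are copies of other samples' arrays. The column of IS + DIDS 1 stood apart: its score on the first principal component was 50.59, against -17.69 to 8.923 for the other 11, so the proteasome counts are also given without it, as is each single value that it moves by over 1.5 times. The sample ACSF + DIDS 2 is described in one of its labels as an IS + DIDS sample and was placed by its title. Chips are known for 9 columns: chip 1 held Control ACSF 1, Control ACSF 2 and IS 1, and chip 2 held Control ACSF 3, IS 3 and all 4 known DIDS columns, so DIDS was compared partly across chips. The labels do not say whether replicates were separate cultures, and p-values therefore measure only the spread between these samples, which may be technical. Of 10 listed neuronal markers 7 were named on the array and 6 of those detected (Dcx, Map2, Prox1, Rbfox3, Syn1 and Syt1), while the probe named for Snap25 was not. All 4 astrocyte and all 3 oligodendrocyte markers named on the array were detected. In such bulk RNA, fewer cells of a type and less RNA per cell cannot be told apart.

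Seen over the arrays, proteasome probes stood highest in the samples titled IS + DIDS. For each probe the deviation from its own mean over the 12 arrays was taken on the log2 scale. The median deviation of the 26 proteasome probes was 0.22, 0.118 and 0.116 on IS + DIDS 1, 2 and 3. On the 9 other arrays it ran from -0.13 (IS 3) to 0.014 (ACSF + DIDS 3), so the arrays titled IS + DIDS lay above all others. ACSF + DIDS 2, an IS + DIDS sample by its other label, was at -0.002, so placed by that label it would end this separation. The medians of the 22 Ube2 probes (-0.17 to 0.128) and of the 18 Usp probes (-0.105 to 0.073) did not separate the groups. Both had their lowest value on IS + DIDS 1, the array on which the proteasome median was highest.

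**Figure D1:**
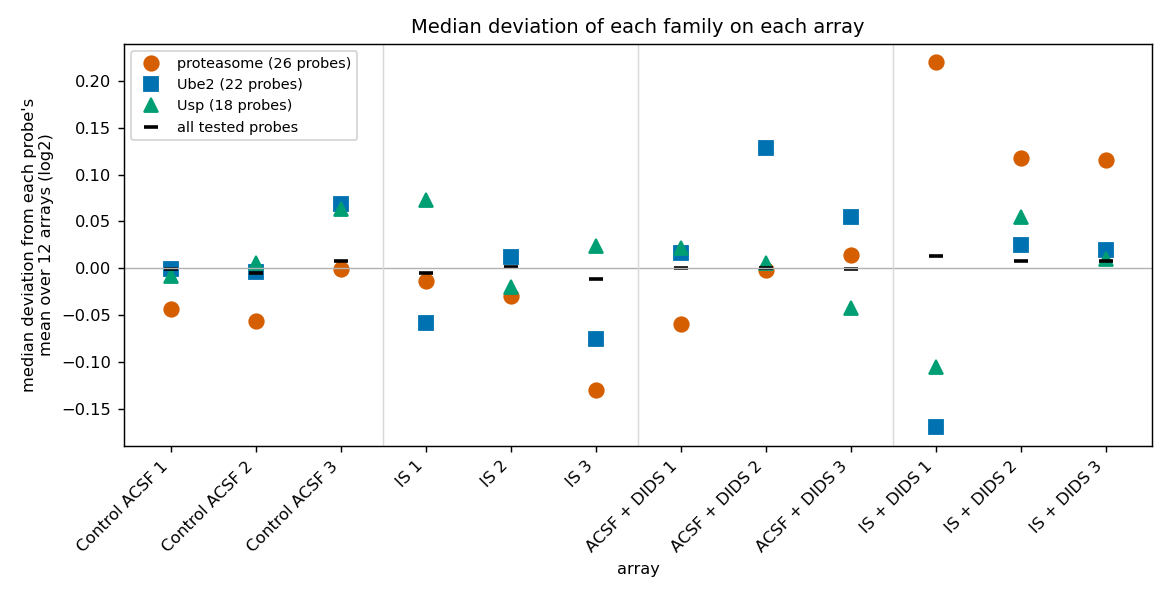
Median log2 deviation (y axis) of the proteasome, Ube2 and Usp probes and of all tested probes on each of the 12 arrays (x axis), each probe set against its own mean over the arrays. The 3 arrays titled IS + DIDS hold the highest proteasome medians, 0.22, 0.118 and 0.116, and IS + DIDS 1 the lowest Ube2 and Usp medians.

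The proteasome family is described first, for IS + DIDS against IS. Of its 26 probes, 23 (88.5%) had a higher mean in IS + DIDS, against 52.5% of all 16717 tested probes, and the median difference was 0.18 on the log2 scale against 0.01 over all probes. Single changes were small: 2 probes rose past an adjusted p of 0.05, those of Psmc6 and Psmg1, and 0 fell, where 3.07% of all tested probes passed (0.664% rose and 2.41% fell). Over all 66 members 3 passed, the third being Usp53, which fell. At an unadjusted p under 0.05, 9 proteasome probes were higher and 1 lower, where 8.33% of all tested probes were higher and 9.68% lower. The ranges of the 3 arrays did not overlap for 13 probes that were higher and 1 that was lower, with a background of 11.7% higher and 11.3% lower. Without IS + DIDS 1 the count of higher means was again 23 of 26, with a median of 0.18. Within chip 2, where 1 IS array met 2 IS + DIDS arrays, it was 24 of 26 with a median of 0.23, and 22 of 26 with a median of 0.22 with chip as a block. With ACSF + DIDS 2 placed in IS + DIDS, it was 22 of 26 with a median of 0.15.

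**Figure D2:**
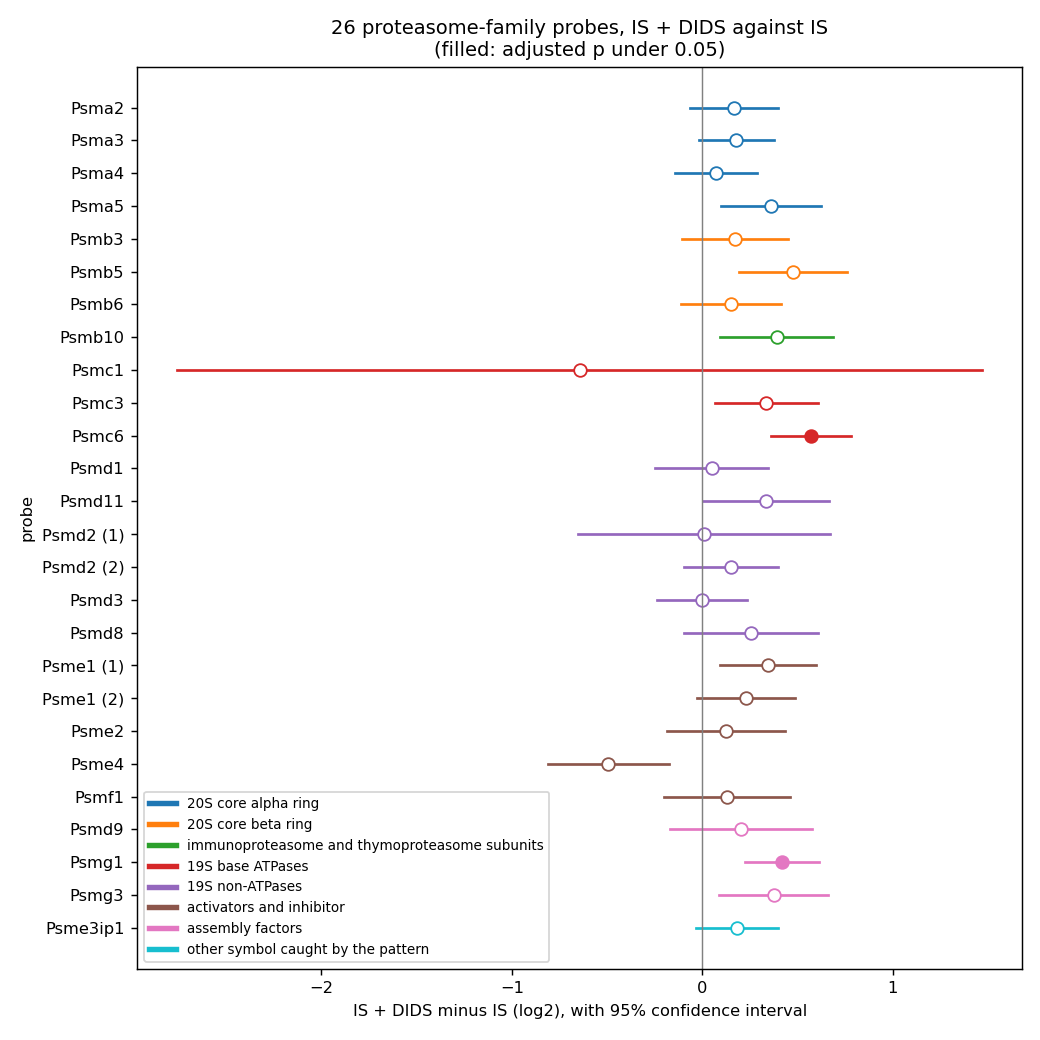
Difference between IS + DIDS and IS (x axis, log2, with 95% confidence intervals from the fit) for each of the 26 proteasome-family probes (y axis), coloured by subunit group, filled where the adjusted p was under 0.05. Points lie right of 0 for 23 probes, Psmc6 and Psmg1 are filled, and Psme4 and Psmc1 lie to the left.

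Psmc6 encodes an ATPase of the ring at the base of the regulatory cap. Its normalized intensity was 490.0, 434.5 and 444.5 in Control ACSF, 387.2, 388.0 and 381.6 in IS, 466.7, 443.6 and 478.6 in ACSF + DIDS, and 583.7, 531.1 and 608.1 in IS + DIDS. IS was the lowest group and IS + DIDS the highest, and neither overlapped any other group with samples placed by title. Under its other label ACSF + DIDS 2, at 443.6, would bring IS + DIDS into overlap with Control ACSF. IS + DIDS exceeded IS by 0.57 ± 0.097 (log2 ± SE, n = 3 against 3, 1.49-fold, 95% interval 0.36 to 0.78, adjusted p = 0.00961). Without IS + DIDS 1 the difference was 0.56 (adjusted p = 0.0203), and with chip as a block 0.58 (adjusted p = 0.0577). In the 9 scanner arrays corrected for background it was 0.66 (adjusted p = 0.0663). With ACSF + DIDS 2 placed as its other label has it, in IS + DIDS, it was 0.48 (adjusted p = 0.095).

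Psmg1 encodes a chaperone that assembles the outer ring of the core. Its intensities were 1189, 1219 and 1145 in Control ACSF, 1024, 1103 and 1071 in IS, 1201, 1228 and 1259 in ACSF + DIDS, and 1425, 1384 and 1459 in IS + DIDS. Again IS was lowest and IS + DIDS highest, with no overlap between either and another group by title. Under its other label ACSF + DIDS 2, at 1228, would bring IS + DIDS into overlap with ACSF + DIDS. The difference between IS + DIDS and IS was 0.42 ± 0.089 (log2 ± SE, n = 3 against 3, 1.34-fold, adjusted p = 0.0261), and 0.42 without IS + DIDS 1 (adjusted p = 0.0432). With chip as a block it was 0.45 (adjusted p = 0.0748), and with ACSF + DIDS 2 placed in IS + DIDS 0.36 (adjusted p = 0.12). The call was also lost without IS + DIDS 2 (0.44, adjusted p = 0.0707), IS + DIDS 3 (0.40, 0.0842), IS 1 (0.39, 0.131), IS 2 (0.44, 0.0611) or IS 3 (0.42, 0.0586). In the 7 scanner arrays that are filed under a single group each, which leave fewer arrays per group, the difference was 0.54.

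**Figure D3:**
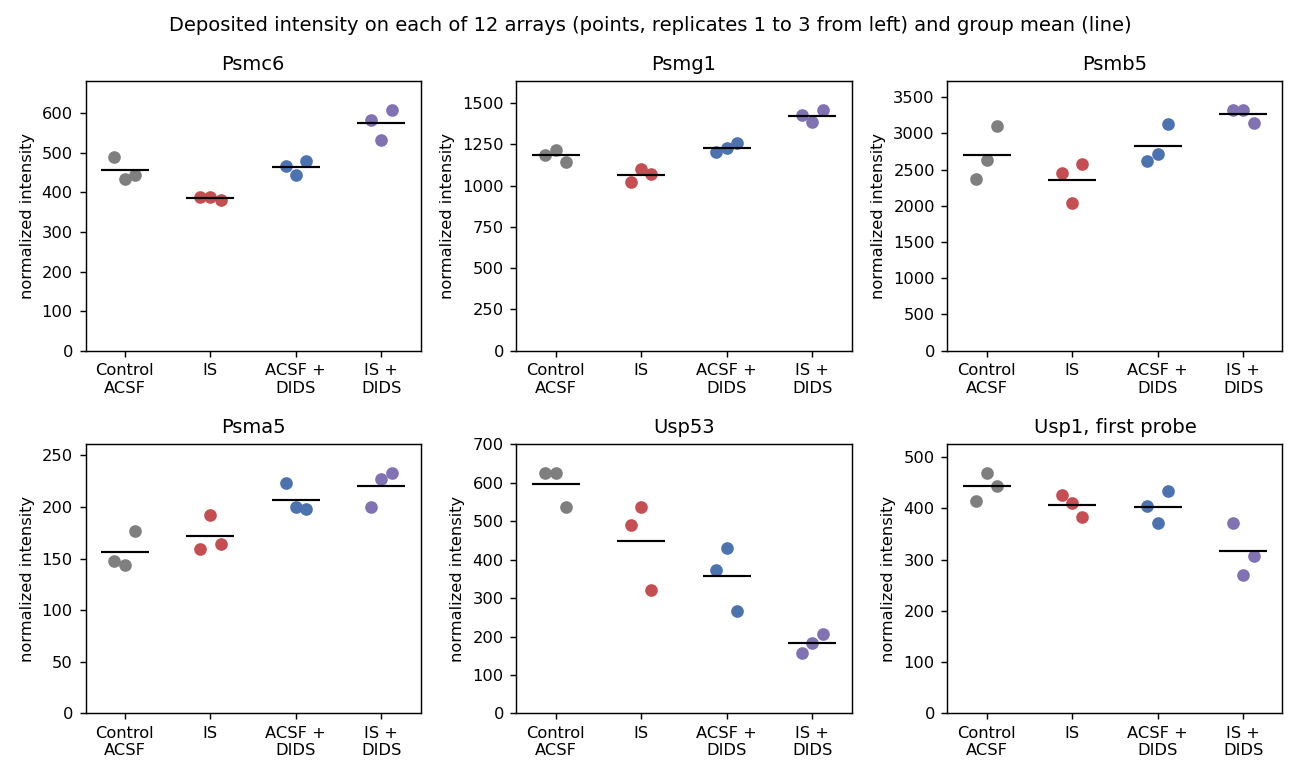
Deposited normalized intensity (y axis, linear from 0) of 6 member probes on each of the 12 arrays (points) in the 4 groups (x axis), with the group mean as a line. Psmc6 and Psmg1 are highest in IS + DIDS and lowest in IS, Psma5 is higher on all 6 DIDS arrays, and Usp53 is lowest in IS + DIDS (158.5 to 206.2).

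The promoters of these genes are shown because 3 proteasome probes stand out from the rest: Psmc6 and Psmg1 passed within IS, and Psma5 separated all arrays with DIDS from all without. Given are the 250 bases before the annotated start, 5′ to 3′ on the gene's strand, from RefSeq on GRCm38.p6, at chr14:45329574-45329823 on the plus strand for Psmc6, chr16:95990961-95991210 on the minus strand for Psmg1, and chr3:108256676-108256925 on the plus strand for Psma5. Capitals mark matches on either strand to the antioxidant response element core TGACNNNGC, to the CCAAT box CCAAT and to the ETS-type motif CCGGAAG. The last of these was chosen after the sequences were seen.
Psmc6: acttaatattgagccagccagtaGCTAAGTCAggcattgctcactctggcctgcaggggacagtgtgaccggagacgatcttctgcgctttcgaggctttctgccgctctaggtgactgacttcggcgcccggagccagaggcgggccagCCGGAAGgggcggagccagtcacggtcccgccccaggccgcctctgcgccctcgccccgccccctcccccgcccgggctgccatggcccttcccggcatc
Psmg1: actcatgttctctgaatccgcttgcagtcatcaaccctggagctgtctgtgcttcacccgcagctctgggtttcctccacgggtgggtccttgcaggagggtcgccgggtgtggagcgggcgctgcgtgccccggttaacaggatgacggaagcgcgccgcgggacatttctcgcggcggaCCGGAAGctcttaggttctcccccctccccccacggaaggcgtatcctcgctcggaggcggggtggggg
Psma5: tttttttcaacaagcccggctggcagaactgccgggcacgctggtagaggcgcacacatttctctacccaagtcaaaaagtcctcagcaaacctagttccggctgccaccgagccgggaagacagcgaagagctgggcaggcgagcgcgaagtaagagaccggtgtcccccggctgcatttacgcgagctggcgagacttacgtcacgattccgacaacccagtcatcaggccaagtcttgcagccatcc
Psmc6 held 1 match to the response element core and 1 to the ETS-type motif, Psmg1 held 1 match to the ETS-type motif, and Psma5 held 0. Of the 32851 promoters in the reference table, 10.2% held the response element core, 33.8% the CCAAT box and 6.91% the ETS-type motif in the same window. Among the 22 of 24 proteasome genes with a promoter in that table, 4 (Psmb5, Psmb6, Psmc6 and Psmd9) held the response element core, 5 (Psma2, Psma3, Psmb3, Psmc1 and Psme3ip1) the CCAAT box and 6 (Psmc1, Psmc6, Psmd11, Psmd2, Psme4 and Psmg1) the ETS-type motif. The ETS-type motif was chosen with the sequences of Psmc6 and Psmg1 in view, and both are among its 6 genes, so that count does not test enrichment. These are letter matches and no evidence of a bound factor.

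The proteolytic core leaned the same way, and none of its probes passed. All 4 kept probes of its outer ring (Psma2, Psma3, Psma4 and Psma5) had higher means in IS + DIDS than in IS. They differed by 0.07 to 0.36 on the log2 scale, and by 0.02 to 0.43 without IS + DIDS 1. The 3 kept probes of its inner ring differed by 0.15 to 0.47, but Psmb3 and Psmb6 by only 0.04 each without IS + DIDS 1. The largest difference of the inner ring was that of Psmb5, the chymotrypsin-like catalytic subunit, with intensities of 2459, 2034 and 2580 in IS and 3322, 3320 and 3140 in IS + DIDS. These groups did not overlap, and the difference was 0.47 ± 0.13 (log2 ± SE, adjusted p = 0.0713, without IS + DIDS 1 0.46, adjusted p = 0.116). With chip as a block it was 0.25 (adjusted p = 0.325).

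Psmb10, a catalytic subunit of the immunoproteasome that is common in immune cells, was measured at 1196, 1193 and 936.7 in IS and at 1746, 1356 and 1270 in IS + DIDS. It differed by 0.39 ± 0.14 (log2 ± SE) without overlap and without passing (adjusted p = 0.15), and by 0.25 without IS + DIDS 1, its highest array. Microglial markers were not level across the same arrays: 3 of the 4 listed markers named on the array were detected (C1qa, C1qb and Csf1r), their summed intensity was 5180 to 6117 in IS and 5272 to 9178 in IS + DIDS, and their median difference was 0.40. None of the 3 passed, and their part in the result was not tested.

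Among the ATPases of the cap, Psmc3 was also higher in IS + DIDS, at 4891, 4069 and 3956 against 3015, 3708 and 3501, by 0.34 ± 0.12 (log2 ± SE, adjusted p = 0.171) and by 0.20 within chip 2. Psmc1 could not be read as a group value. Its probe gave 120.3 on Control ACSF 2 and 125.1 on IS + DIDS 1 but 783.2 to 1929 on the other 10 arrays. The fit returned -0.64 ± 0.97 for IS + DIDS against IS, and 0.66 without IS + DIDS 1. The 6 probes of the other cap subunits differed by -0.002 to 0.33, and without IS + DIDS 1 by -0.11 (Psmd1) to 0.46 (the first Psmd2 probe). The direction of Psmd3 was not settled, since with chip as a block its difference was 0.11. Psmd11, a scaffold subunit, gave the highest of these (0.33 ± 0.15, adjusted p = 0.274) and Psmd3 the lowest (-0.002 ± 0.11, adjusted p = 0.995, and -0.02 without IS + DIDS 1). Psmd2, a scaffold subunit with a pair of tested probes, differed by 0.008 ± 0.30 on the first, which read 237.7 on IS + DIDS 1 and 627.5 and 582.8 on the other IS + DIDS arrays, and by 0.15 ± 0.11 on the second, values that were 0.46 and 0.10 without IS + DIDS 1.

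The activators split. Psme4, which encodes the large nuclear activator, was lower in IS + DIDS at 611.1, 514.6 and 404.8 than in IS at 794.4, 640.6 and 699.5, the only proteasome probe whose groups parted downwards. Its difference was -0.49 ± 0.15 (log2 ± SE, adjusted p = 0.0924). Without IS + DIDS 1 it was -0.63 and passed (adjusted p = 0.0334), and with chip as a block it was -0.68 (adjusted p = 0.0678). Psme1, a subunit of the ring-shaped activator induced by interferon gamma, had 2 probes with differences of 0.34 ± 0.12 and 0.23 ± 0.12, the second 0.12 without IS + DIDS 1. Its partner Psme2 differed by 0.12 ± 0.14 (0.37 on chip 2), and the inhibitor Psmf1 by 0.13 ± 0.15 (0.02 without IS + DIDS 1 and 0.35 on chip 2). Of the assembly factors other than Psmg1, Psmg3 was measured at 369.0, 386.4 and 385.0 in IS and at 591.0, 415.3 and 486.8 in IS + DIDS (0.37 ± 0.13, adjusted p = 0.153). Leaving out IS + DIDS 1, its highest array, gave 0.24 for Psmg3, and chip 2 gave 0.22. Psmd9 differed by 0.20 ± 0.17 (adjusted p = 0.578), and by 0.002 with chip as a block.

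IS alone left the proteasome family near its control level. In IS against Control ACSF, 12 of the 26 proteasome probes were higher, against 49.2% of all tested probes, and the median difference was -0.003. By limma 0 of all 66 members passed, where 0.891% of all tested probes did (149 of 16717, with 0.329% higher and 0.562% lower). At an unadjusted p under 0.05, 4 members were lower and 0 higher, where 4.59% of all tested probes were lower and 4.33% higher (8.92% in all). These were Psmc6 (-0.24 ± 0.097), Psmg3 (-0.29 ± 0.13), Ube2d2a on one of its probes (-0.27 ± 0.11) and Ube2d3 (-0.33 ± 0.14), with adjusted p from 0.459 to 0.548. The groups did not overlap for 5 proteasome probes that were lower and 2 that were higher, with a background of 8.58% lower and 7.35% higher. On chip 2 alone, where Control ACSF 3 met IS 3, 5 of the 26 were higher and the median was -0.18, a value of 1 array against 1. Psmd2, on its first probe, lay below the control range, with 606.9, 661.9 and 670.1 in Control ACSF against 500.8, 531.5 and 321.5 in IS (-0.55 ± 0.31, adjusted p = 0.659), while its other probe differed by 0.01. Psme4 was measured at 562.5, 611.4 and 602.5 in Control ACSF and at higher values in IS (0.26 ± 0.15, adjusted p = 0.664). Psmd1, a scaffold subunit of the cap, differed by 0.19 ± 0.14 (adjusted p = 0.772), and Psmc1 by 1.201 ± 0.97, with the low array noted above and with -0.13 on chip 2. On that chip Psmd2 differed by -1.06 on its first probe.

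Set against DIDS without ischemia, IS + DIDS gave much the same lean. In IS + DIDS against ACSF + DIDS, 22 of the 26 proteasome probes (84.6%) were higher, against 51.0% of all tested probes, with a median of 0.19 against 0.01. None of them passed, and 1 of the 66 members did, Usp53, which fell, where 2.47% of all tested probes passed (0.814% rose and 1.66% fell). At an unadjusted p under 0.05, 9 proteasome probes were higher and 0 lower, where 10.1% of all tested probes were higher and 10.8% lower (20.9% in all). The groups did not overlap for 10 proteasome probes that were higher and 1 that was lower, with a background of 13.6% and 12.5%. The same 84.6% held without IS + DIDS 1, with a median of 0.17, and within chip 2, with a median of 0.12. Across all alternatives the median ran from 0.09 to 0.23. Psmc6 was higher by 0.31 ± 0.097 (adjusted p = 0.107), and Psmd2 on its first probe differed by -0.62 ± 0.30 (adjusted p = 0.269, without IS + DIDS 1 -0.17). With ACSF + DIDS 2 placed in IS + DIDS these differences were 0.19 (adjusted p = 0.635) and -0.34 (adjusted p = 0.75). This comparison shares its IS + DIDS arrays with the one against IS, so the values of both stand side by side and do not count as separate evidence. Cell type markers were not level in this comparison, with a median of 0.29 for the 3 microglial, 0.20 for the 3 oligodendrocyte, 0.008 for the 4 astrocyte and -0.26 for the 6 neuronal markers, and -0.49 for Dcn, a marker of meninges and fibroblasts. The summed neuronal intensity was 25380 to 29790 in ACSF + DIDS and 18840 to 25790 in IS + DIDS, and the microglial sum 5114 to 6390 and 5272 to 9178. None of these markers passed, and their part in the result was not tested.

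The interaction, which asks whether the difference made by DIDS was larger in IS than in ACSF, passed for 0 of the 66 members by limma, where 0.532% of all tested probes passed (0.179% positive and 0.353% negative). Nominally, at an unadjusted p under 0.05, 9 members had an interaction, 8 of them positive and 6 of those proteasome probes, where 5.25% of all tested probes were positive and 5.5% negative at that level (10.8% in all). Of the 26 proteasome probes 20 had a positive value, against 50.5% of all tested probes, with a median of 0.20 against 0.004. Among the proteasome probes Psmc6 had the highest test statistic, 0.55 ± 0.14 (log2 ± SE, adjusted p = 0.13), and Psme4 the lowest, -0.36 ± 0.21 (adjusted p = 0.558), which was -0.55 with chip as a block. With ACSF + DIDS 2 placed in IS + DIDS, Psmc6 was at 0.43 (adjusted p = 0.656) and Psme4 at -0.45 (adjusted p = 0.693). The count of positive values was 21 of 26 without IS + DIDS 1, with a median of 0.18, and 24 of 26 within chip 2, with a median of 0.29. Within that chip Control ACSF 3 was the only control and IS 3 the only IS array. IS 3 had the lowest proteasome median of all arrays (-0.13). The same marker lists gave medians of 0.44 (microglial) and -0.23 (neuronal) in the interaction, and their part was not tested.

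DIDS without ischemia moved the family little. In ACSF + DIDS against Control ACSF, 15 of the 26 proteasome probes were higher, against 50.6% of all tested probes, and the median was 0.03. By limma 0 of the 66 members passed, where 0.592% of all tested probes did (0.173% higher and 0.419% lower). At an unadjusted p under 0.05, 2 members were higher and 2 lower, where 3.57% of all tested probes were higher and 5.23% lower (8.79% in all). The groups did not overlap for 2 proteasome probes that were higher and 3 that were lower, with a background of 7.0% and 8.64%. Psma5, a subunit of the outer ring of the core, had the highest test statistic of the family, with 147.5, 143.7 and 177.0 in Control ACSF and 197.8 to 223.0 in ACSF + DIDS (0.41 ± 0.12, adjusted p = 0.265). Within chip 2 its difference was 0.17, and with chip as a block 0.24. With array weights, chosen after seeing the data, it was 0.45 and passed (adjusted p = 0.0183), where 4.57% of all tested probes did. Psmg3 was lowest, at 491.0, 449.7 and 457.0 against 392.3, 338.7 and 425.1 (-0.28 ± 0.13, adjusted p = 0.59).

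Pooling both solutions, the 6 arrays with DIDS were compared with the 6 without. Psma5 was the only member whose arms did not overlap, where 0.401% of all tested probes parted upwards and 1.03% downwards. It was measured at 159.0, 192.4 and 163.7 in IS and at 199.6, 227.0 and 233.2 in IS + DIDS, so that the highest array without DIDS, IS 2, lay below the lowest with it, ACSF + DIDS 3 at 197.8. Its difference was 0.39 ± 0.088 (log2 ± SE, n = 6 against 6, 1.31-fold, adjusted p = 0.0827), and 0.40 without IS + DIDS 1 (adjusted p = 0.0752). Within chip 2, where 2 arrays without DIDS met 4 with it, it was 0.33 (adjusted p = 0.64). By limma 0 of the 66 members passed, where 0.455% of all tested probes did (0.0419% higher and 0.413% lower). Without adjustment, 14 members differed at p under 0.05, 10 higher and 4 lower, where 13.2% of all tested probes did (5.46% higher and 7.75% lower). With 1 coefficient per group in place of pooled solutions, 3 members passed (Usp53, Psma5 and Psmc6), where 2.48% of all tested probes did. Of the proteasome probes 23 of 26 were higher with DIDS, against 52.7% of all tested probes, with a median of 0.10, and without IS + DIDS 1 20 of 26 were, with a median of 0.05. Within chip 2 it was also 20 of 26, with a median of 0.11. Psmc6 (0.30 ± 0.099, adjusted p = 0.21) and Psmg1 (0.24 ± 0.079, adjusted p = 0.21) were next by test statistic, and Psme4 (-0.32 ± 0.11, adjusted p = 0.237) was lowest. Psma4 (-0.03, and -0.08 without IS + DIDS 1) and Psme2 (-0.009, but 0.17 on chip 2 and -0.02 without IS + DIDS 1) lay near 0. Dcn, the only detected marker of 3 on the array for meninges and fibroblasts, ran along DIDS as well, at 2298 to 3220 on the arrays without it and 2860 to 6384 on those with it, and its part in these results was not tested.

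The Ube2 family did not lean in IS + DIDS against IS. Of 22 probes 12 (54.5%) were higher, against 52.5% of all tested probes, and the median was 0.02. Without IS + DIDS 1, 15 of 22 were higher, with a median of 0.08. With all arrays 0 passed, where 3.07% of all tested probes did. At an unadjusted p under 0.05, 2 were higher and 1 lower, where 8.33% of all tested probes were higher and 9.68% lower. Ube2z, which is charged by the alternative ubiquitin-activating enzyme Uba6, was higher in IS + DIDS at 645.5, 844.3 and 857.6 than in IS at 625.5, 622.1 and 597.0. The difference was 0.34 ± 0.13 (adjusted p = 0.179), and without IS + DIDS 1 it was 0.47 and passed (adjusted p = 0.0481). Ube2h, the conjugating enzyme that works with the CTLH ligase complex, was lower at 991.3, 1034 and 948.1 against 1507, 1173 and 1193 (-0.37 ± 0.13, adjusted p = 0.137). Of the pair of Ube2e1 probes the second differed by 0.33 ± 0.16 (adjusted p = 0.292) and the first by -0.23 ± 0.32 (adjusted p = 0.752), where it read 224.9 on IS + DIDS 1 and 638.8 and 679.5 on the other IS + DIDS arrays. Leaving out IS + DIDS 1 turned the first to 0.28, the direction of the second (0.37). Ube2e3 differed by -0.17 ± 0.12 (adjusted p = 0.503), by -0.04 without IS + DIDS 1 and by 0.05 on chip 2. Over the 6 arrays with DIDS against the 6 without, Ube2z (0.28 ± 0.092) and Ube2m (0.21 ± 0.088) stood on the high side, Ube2h (-0.21 ± 0.098) and Ube2l3 (-0.08 ± 0.091) on the low side, and none passed (adjusted p from 0.204 to 0.762). Within chip 2 Ube2l3 differed by 0.09 and Ube2m by 0.005, and without IS + DIDS 1 Ube2l3 by -0.05.

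In IS against Control ACSF, 9 of the 22 Ube2 probes were higher, with a median of -0.04. The lowest by test statistic were Ube2d2a and Ube2d3, widely used E2 enzymes of ubiquitin given above, and Ube2v1, the inactive partner of Ube2n in building signalling chains. Ube2d3 was measured at 1755, 1676 and 1908 in Control ACSF and 1248, 1555 and 1468 in IS, with no overlap. The second Ube2d2a probe differed by -0.04. Ube2v1 differed by -0.32 ± 0.21 (adjusted p = 0.731). The highest were Ube2o (0.11 ± 0.12), Ube2g1 (0.07 ± 0.10) and Ube2h (0.08 ± 0.13), with adjusted p from 0.887 to 0.928, and Ube2h differed by -0.013 on chip 2. For IS + DIDS against ACSF + DIDS, 7 of 22 were higher, with a median of -0.14, and without IS + DIDS 1 9 of 22 were, with a median of -0.04. Ube2v1 was lowest there, with 2399, 2482 and 2410 in ACSF + DIDS and 1036, 2005 and 2096 in IS + DIDS (-0.57 ± 0.21, adjusted p = 0.159), and without IS + DIDS 1, the array at 1036, it was -0.25 (adjusted p = 0.314). Ube2g1, an E2 of misfolded-protein disposal at the endoplasmic reticulum, was highest (0.24 ± 0.10, adjusted p = 0.203). The highest and lowest in ACSF + DIDS against Control ACSF were Ube2m, a conjugating enzyme of NEDD8 (0.26 ± 0.13, adjusted p = 0.613, and 0.07 on chip 2), and the second Ube2d2a probe (-0.14 ± 0.11, adjusted p = 0.774, and -0.09 with chip as a block), and lowest in the interaction was Ube2o (-0.35 ± 0.17, adjusted p = 0.5).

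Usp53 carried the largest passing difference of the 3 families. It encodes a Usp-family protein known from tight junctions of the mouse inner ear. Its probe gave 626.6, 624.6 and 536.7 in Control ACSF, 490.5, 536.6 and 321.5 in IS, 372.5, 430.2 and 267.8 in ACSF + DIDS, and 158.5, 182.3 and 206.2 in IS + DIDS. The arrays titled IS + DIDS lay below all others, and Control ACSF above all others (its lowest array at 536.7, IS 2 at 536.6), while IS and ACSF + DIDS overlapped. Under its other label ACSF + DIDS 2, at 430.2, would bring IS + DIDS into overlap with IS and ACSF + DIDS. IS + DIDS was below IS by 2.42-fold, a difference of -1.28 ± 0.21 (log2 ± SE, 95% interval -1.72 to -0.83, adjusted p = 0.00746), and below ACSF + DIDS by 1.93-fold (-0.95 ± 0.21, adjusted p = 0.0322). Against Control ACSF, IS differed by -0.44 ± 0.21 (adjusted p = 0.576) and ACSF + DIDS by -0.76 ± 0.21 (adjusted p = 0.189). Over the arrays with DIDS against those without, the difference was -1.02 ± 0.24 (adjusted p = 0.0882).

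Other processing kept the direction of Usp53 and in part ended its call. Without IS + DIDS 1 it was -1.18 against IS (adjusted p = 0.0195) and -0.85 against ACSF + DIDS (adjusted p = 0.0875). With chip as a block the difference against IS was -0.84 (adjusted p = 0.0874) and within chip 2 it was -0.73 (adjusted p = 0.269). In the 9 scanner arrays it was -1.27 (adjusted p = 0.0895), and with ACSF + DIDS 2 placed in IS + DIDS -0.96 (adjusted p = 0.162). The call against ACSF + DIDS was lost, at -0.80 to -0.95, without ACSF + DIDS 1 or 2, Control ACSF 1 or 2, or IS + DIDS 2 as well (adjusted p from 0.0508 to 0.118), and with ACSF + DIDS 2 placed in IS + DIDS it was -0.49 (adjusted p = 0.627). Over the arrays with DIDS against those without, the difference passed without ACSF + DIDS 2 (-1.17, adjusted p = 0.0388) or without IS 3 (-1.15, adjusted p = 0.041).

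In the fit used here no other Usp gene passed in any comparison. For IS + DIDS against IS, 7 of 18 Usp probes were higher, with a median of -0.06, and 8 of 18 without IS + DIDS 1, with a median of -0.007. Usp1, a nuclear protease of DNA repair, was measured on one probe at 425.1, 410.3 and 383.7 in IS and 372.3, 269.8 and 306.7 in IS + DIDS, without overlap (-0.37 ± 0.12, adjusted p = 0.132), and without IS + DIDS 1 it was -0.50 and passed (adjusted p = 0.0413). Its other probe differed by 0.05. Usp6nl, the GTPase-activating protein caught by name, differed by -0.44 ± 0.17 (adjusted p = 0.184). On the high side stood Usp46, a protease studied in synaptic receptor turnover, at 168.7, 190.0 and 192.8 in IS and 220.6, 217.5 and 230.0 in IS + DIDS (0.28 ± 0.10, adjusted p = 0.16). Usp10, a binding partner of stress granule proteins, differed by 0.23 ± 0.12 (adjusted p = 0.345) and by -0.05 on chip 2, and Usp39, an inactive family member of the spliceosome, by 0.27 ± 0.16 (adjusted p = 0.402) and by 0.42 with chip as a block. With array weights, Usp1 on its first probe (-0.57, adjusted p = 0.00172), Usp46 (0.30, adjusted p = 0.0225) and Usp6nl (-0.40, adjusted p = 0.0483) passed, where 17.6% of all tested probes did.

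In IS against Control ACSF, 11 of 18 Usp probes were higher, with a median of 0.04. Usp36, a nucleolar protease (0.19 ± 0.13), Usp32 (0.22 ± 0.14) and Usp20 (0.12 ± 0.11) were highest by test statistic, and Usp53, Usp9x (-0.35 ± 0.16) and Usp1 on its second probe (-0.17 ± 0.097) lowest, with adjusted p from 0.576 to 0.844. On chip 2, 1 array against 1, Usp36 differed by 0.02 and Usp9x by -0.75. Usp36 was also highest in ACSF + DIDS against Control ACSF, at 476.5, 409.0 and 397.0 against 301.9, 311.3 and 375.4 without overlap (0.38 ± 0.13, adjusted p = 0.401). That difference was 0.10 within chip 2 and 0.19 with chip as a block, and with array weights it was 0.41 and passed (adjusted p = 0.0285). It was lowest in the interaction (-0.50 ± 0.18, adjusted p = 0.343, and -0.14 on chip 2), where Usp1 on its second probe was highest (0.33 ± 0.14, adjusted p = 0.415). In IS + DIDS against ACSF + DIDS, Usp10 was highest (0.27 ± 0.12, adjusted p = 0.22). Over the arrays with DIDS against those without, Usp46 (0.22 ± 0.078), Usp11 (0.24 ± 0.11) and Usp39 (0.21 ± 0.11) stood highest, Usp11 at 0.001 within chip 2, and Usp1 on its first probe (-0.25 ± 0.11) and Usp6nl (-0.25 ± 0.14) were lowest after Usp53.

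**Figure D4:**
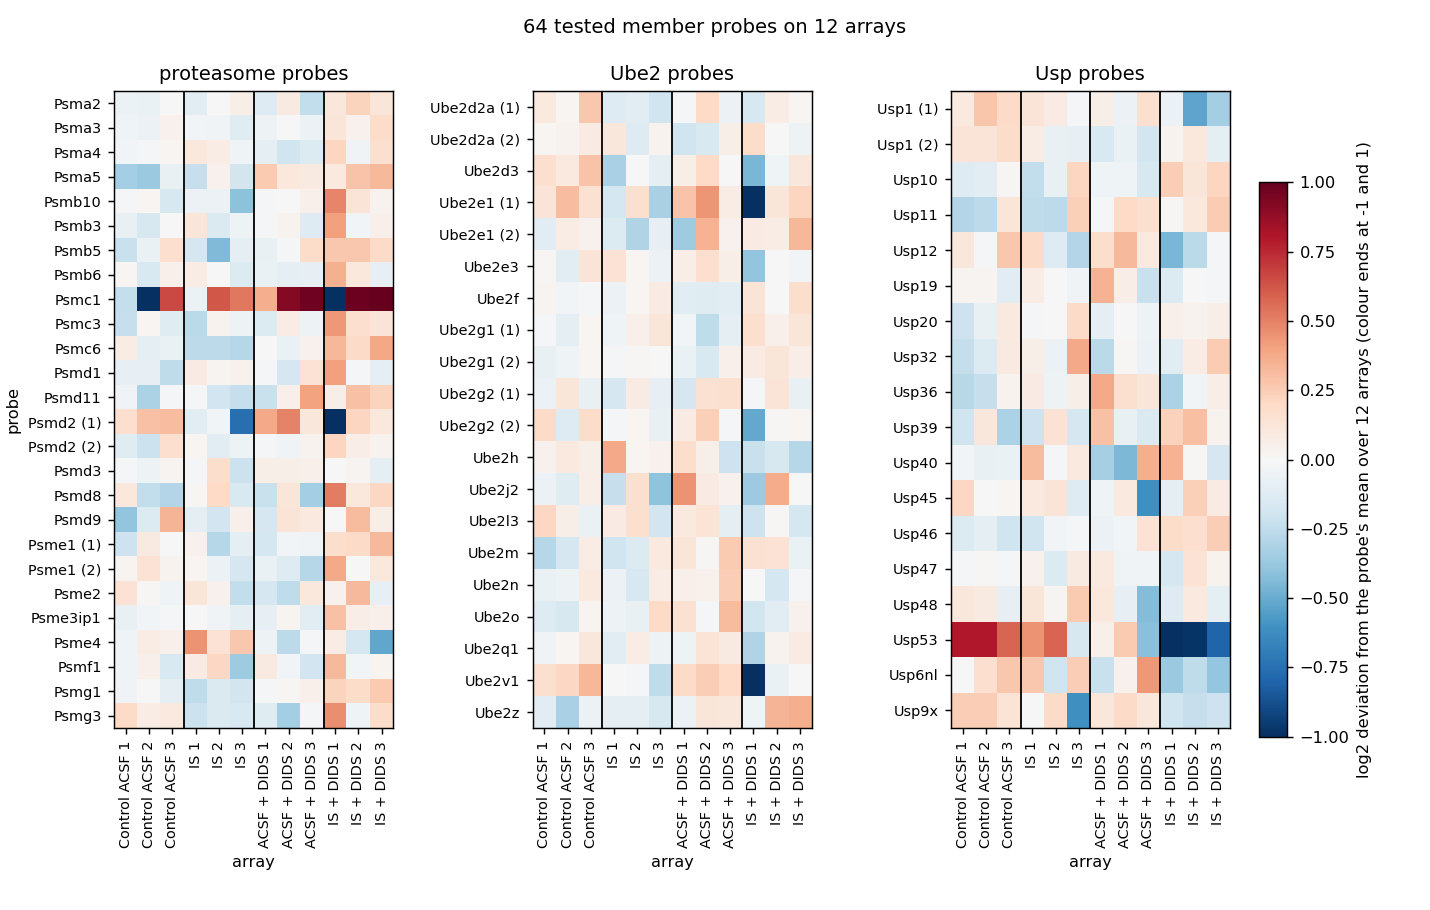
Log2 deviation (colour) of 64 of the 66 tested member probes (rows) from its mean over the 12 arrays (columns), in 3 panels for the proteasome, Ube2 and Usp probes, with lines between the 4 groups. Proteasome probes are mostly above their mean in IS + DIDS, Usp53 falls to its lowest values there, and Psmc1, the first Psmd2 probe, the first Ube2e1 probe and Ube2v1 are low on IS + DIDS 1.

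The rest of the ubiquitin pathway was followed through 82 probes of ubiquitin and its relatives, E1 enzymes, E3 ligases, further deubiquitinases, and shuttles and regulators of the proteasome. None of the 82 passed in any of the 6 comparisons. Of the 82, 44 (53.7%) were higher in IS + DIDS against IS, with a median of 0.02, close to the 52.5% and 0.01 of all tested probes, and at an unadjusted p under 0.05 2 were higher and 3 lower, where 8.33% of all tested probes were higher and 9.68% lower. The highest and lowest by test statistic were Brcc3, a deubiquitinase of signalling chains (0.33 ± 0.12, adjusted p = 0.152), and Marchf6, an E3 ligase of the endoplasmic reticulum (-0.63 ± 0.22, adjusted p = 0.149), which read 1078 on IS + DIDS 1 and 1874 and 1934 on the other IS + DIDS arrays and differed by -0.36 without the first of these. For IS + DIDS against ACSF + DIDS, 38 of 82 were higher, with a median of -0.03. In IS against Control ACSF, 37 of 82 were higher, with a median of -0.02, from Ubl4a (-0.28 ± 0.11, adjusted p = 0.402) to Ubr2, an E3 ligase (0.47 ± 0.19, adjusted p = 0.45). In ACSF + DIDS against Control ACSF, Fbxw7, the substrate receptor of an E3 ligase, was highest (0.59 ± 0.16, adjusted p = 0.197) and Senp1, a SUMO protease, lowest (-0.40 ± 0.13, adjusted p = 0.309). Tollip, an adaptor that binds ubiquitin, was lowest in IS + DIDS against ACSF + DIDS (-0.76 ± 0.25, adjusted p = 0.117), with 843.4 on IS + DIDS 1 and 1866 and 1676 on the other IS + DIDS arrays, and in the interaction (-0.88 ± 0.35, adjusted p = 0.384). Without IS + DIDS 1 these values were -0.41 and -0.52. Birc2, an E3 ligase of cell death signalling, was highest in the former (0.34 ± 0.12, adjusted p = 0.153) and Adrm1, a ubiquitin receptor of the proteasome cap, in the latter (0.36 ± 0.16, adjusted p = 0.434). Over the arrays with DIDS against those without, Brcc3 was highest (0.24 ± 0.086, adjusted p = 0.238) and Senp1 lowest (-0.27 ± 0.094, adjusted p = 0.221).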

How the data were processed

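Labelled RNA was hybridised to Illumina arrays, and intensities were read with BeadStudio 2.0, per the submitters' processing notes (2.3.47 per the file headers). The deposited scanner files hold the signal intensity and a detection score of each probe, not normalized per the file headers. The deposited value table holds intensities on a linear scale, made comparable between arrays by a method not given in the sources used here, neither centred nor, by its column medians of 80.6 to 82.5, freed of background, so that folds of dim probes are understated. It holds 46301 of the 46628 probes. The number of arrays limits the precision.

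The design had foreseen background-corrected scanner files. These proved to repeat 3 arrays, so the log2 of the value table was used with limma 3.58.1 (R 4.3.3): 1 coefficient per group, eBayes, and Benjamini-Hochberg adjustment over 16717 probes, those scored over 0.99 for detection by 3 or more of the 9 distinct arrays. DIDS against no DIDS was fitted without the solution. Scanner values (neqc, with an offset of 16) served as alternatives. For those, 11 probes whose score was not a multiple of the common step were left out when the background was inferred. Replicate numbers, whose meaning the labels do not give, were checked as pairs by the correlation of deviations from group means. All 3 pairs were above 0.1 for IS with IS + DIDS (0.129 to 0.198) and Control ACSF with IS (0.14 to 0.426), and not for the other combinations of groups (-0.322 to 0.354). Other alternatives varied the scaling, filter, threshold, chip, replicate block, the place of ACSF + DIDS 2 and each array left out in turn.

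Members and lists were chosen with earlier results of these data known. Named were the 3 highest and 3 lowest probes of each family by moderated t in IS against Control ACSF, IS + DIDS against IS and DIDS against no DIDS, the highest and lowest elsewhere, all passing members, all probes of a named gene where they bear on it, and of the other pathway genes the highest and lowest. Subunit groups are given by range. Of the Ube2 genes 1 that the rule names is counted in the family totals and not reported here. The fit was tested on simulated data with independent noise, no chip effect, and changes larger than those of Psmc6 and Psmg1. That test cannot show how the fit handles chips, an array apart or differences of that size.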

Additional observations from a re-analysis of the deposited data

Results flagged for a closer look

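Among the members named for the arrays with DIDS against those without, each arm of 6 arrays was searched for a single array far from the rest, measured as its gap to the nearest array over the range of the arm. In 3 of 32 arms that share was above Dixon's 95% critical value, and all 3 were arms without DIDS. Its chance rate of about 1 in 20 holds for arrays of a single group. Each arm here pools Control ACSF with IS, or ACSF + DIDS with IS + DIDS, and the members were picked by this comparison. That rate therefore does not apply to these arms. Ube2h was high on IS 1, at 1507 (share 0.794). Usp53 was low on IS 3, at 321.5 (share 0.633), and without that array the difference between IS + DIDS and IS was -1.501 (adjusted p = 0.00146). IS 3 was the only IS array known to lie on chip 2, with IS + DIDS 2 and IS + DIDS 3, so without it the comparison ran partly across chips. With chip as a block and IS 3 kept, the difference was -0.84, and within chip 2 it was -0.73. Ube2z was low on Control ACSF 2, at 532.6 (share 0.626).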

How the results depend on the processing

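Of 184 counts of members passing under the alternatives, 142 were within 1.5 times the count reported. Of 1919 values of named members 1800 kept their direction and their side of the threshold, 48 lost a call, 25 gained one and 46 changed sign. Most of these named results did not pass in the fit used here. All 48 lost calls were those of Psmc6, Psmg1 and Usp53, with 29 alternatives for each passing result. Of 516 family medians 53 moved by more than the spread between replicates. In IS + DIDS against IS the proteasome median ran from 0.154 to 0.422, that of Ube2 from -0.007 to 0.261 and that of Usp from -0.067 to 0.14, and in the interaction the proteasome median ran from 0.104 to 0.291 and that of Ube2 from -0.095 to 0.162. In IS + DIDS against IS, 3 members passed, and 0 did with chip as a block, on chip 2 only, with only the arrays compared in the fit, with ACSF + DIDS 2 placed as IS + DIDS, or in the scanner files (neqc on 9 or 7 arrays, neqc background with median scaling, no background correction, normexp). In IS + DIDS against ACSF + DIDS, where 1 passed, 0 did under those same settings and with no filter. Several of these settings use fewer arrays, and beyond that the cause was not tested. With array weights, chosen after seeing the data, 13 members passed in IS + DIDS against IS, 11 in IS + DIDS against ACSF + DIDS, 3 in ACSF + DIDS against Control ACSF, 2 in the interaction and 3 in arrays with DIDS against arrays without, where 17.6%, 20.4%, 4.57%, 4.0% and 3.49% of all tested probes did. In the last comparison 3 passed with 1 coefficient per group, also chosen after seeing the data, where 2.48% of all tested probes did. At an adjusted p of 0.1, 2 members passed in arrays with DIDS against arrays without, where 167 of 16717 tested probes did. In IS + DIDS against IS 5 did at 0.1 and 3 at 0.05. The 3.07% of all tested probes that passed there is the share at 0.05 and no background for the 5. At an unadjusted p of 0.05, 4 passed in IS against Control ACSF, 17 in IS + DIDS against IS, 4 in ACSF + DIDS against Control ACSF, 18 in IS + DIDS against ACSF + DIDS, 9 in the interaction and 14 in arrays with DIDS against arrays without. These counts are out of 66 members. In the same order, 1491, 3012, 1470, 3486, 1798 and 2207 of the 16717 tested probes passed at that level. Leaving out 1 array gave 2 to 6 members in IS + DIDS against IS, with 6 without IS + DIDS 1, 0 to 1 in IS + DIDS against ACSF + DIDS, and 0 to 1 in arrays with DIDS against arrays without. Without IS + DIDS 1, 3.01% of all tested probes passed in IS + DIDS against IS. The single call of IS + DIDS against ACSF + DIDS was lost without ACSF + DIDS 1 or 2, Control ACSF 1 or 2, or IS + DIDS 1 or 2. A call of arrays with DIDS against arrays without was gained without ACSF + DIDS 2 or IS 3. With the replicate number as a block, 4 members passed in IS + DIDS against IS, and the other counts were unchanged at 1 in IS + DIDS against ACSF + DIDS and 0 elsewhere. Of all tested probes, 3.71% passed in the former comparison with that block and 2.78% in the latter. No member given singly gained or lost its call under the block.

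Values that changed sign all belonged to members that did not pass. For Psmd3 in IS + DIDS against IS these were 0.018 with ACSF + DIDS 2 placed as IS + DIDS, 0.182 on chip 2, 0.106 with chip as a block, 0.006 with median scaling, and in the scanner files 0.316 with neqc background and median scaling, 0.007 with 7 arrays, and 0.079 with neqc, without background correction and with normexp. For Psmc1 they were 0.596 with array weights, 0.492 on chip 2, 0.017 with chip as a block, and in the scanner files 0.952 with median scaling, 0.862 with 7 arrays, 0.819 with neqc, 0.786 without background correction and 0.782 with normexp. In IS against Control ACSF, Psmc1 was -0.135 and Ube2h -0.013 on chip 2. In IS + DIDS against IS, chip 2 gave 0.051 for Ube2e3 and -0.049 for Usp10. In arrays with DIDS against arrays without, chip 2 and chip as a block both gave 0.171 for Psme2 and 0.094 for Ube2l3. All DIDS columns of known chip lie on chip 2, so these settings give the same difference by construction and do not count as separate evidence. Psme2 was also 0.004 on 8 scanner arrays, 0.031 with neqc on 9, 0.029 without background correction and with normexp, and 0.002 in the quantile-normalized value table. With neqc background and median scaling, Psma4 was 0.102, Psme2 0.127 and Ube2l3 0.11 in that comparison, Ube2e3 was 0.092 in IS + DIDS against IS, and the second Ube2d2a probe was 0.02 in ACSF + DIDS against Control ACSF. That scaling moved the median of all probes by 0.164 in IS + DIDS against IS, where 25 of 26 proteasome probes were higher with a median of 0.42, and by 0.116 in arrays with DIDS against arrays without. Leaving out 1 array gave -0.031 to 0.149 for Ube2h in IS against Control ACSF, -0.101 to 0.095 for Psmd3 and -1.316 to 0.657 for Psmc1 in IS + DIDS against IS, and -0.075 to 0.041 for Psme2 and -0.078 to 0.004 for Psma4 in arrays with DIDS against arrays without. The ways of assigning the repeated scanner arrays and the use of all 12 scanner files as labelled were not run, since the value table settled those arrays. Folds of probes near background are limited by the background left in the values.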
